A study of Mus musculus with 14 samples.

Results

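The proteasome genes described here encode the constitutive subunits of the particle, in mouse embryonic fibroblasts (MEFs) that differed in the p65 protein they carried. Members were the non-control probes of the array whose gene name was *Psma*, *Psmb*, *Psmc* or *Psmd* followed by a number, leaving out the inducible *Psmb8*, *Psmb9* and *Psmb10*. That gave 35 genes of 27962 gene names, on 50 of 41174 probes, and each gene was read from its brightest probe. Tests were run on 34 of the 35. The exception was *Psma8*, the alpha subunit of male germ cells, which was not well above background on any of the 14 arrays.

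All cells came from *p65*(-/-) NIH 3T3 MEFs that received a lentiviral pTV vector and were kept as blasticidin-selected pools, not as clones. The number of separately made pools per cell line is not given. Differences between pools therefore cannot be told apart here from differences in the p65 they carried. The vector held myc-tagged wild type p65, the KTR mutant (3 lysines changed to arginine), the K314/315R mutant (2 of these lysines changed), or nothing (pTV, cells without p65). Every culture was starved overnight. Wild type, KTR and pTV cells were measured on 3 arrays each, and K314/315R cells on 2 arrays, after 3 h with mouse TNFα at 30 ng/ml. Wild type cells were also measured on 3 arrays at 0 h without TNFα, and none of the other cell lines has an untreated group here. Messenger RNA was read on Agilent whole mouse genome arrays with 1 dye. A level is the log2 of the spot intensity divided by the 75th percentile of its array, and a change is a difference of such levels.

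The proteasome degrades proteins tagged with ubiquitin. Its 20S core is a stack of outer alpha rings, which gate the entry, and inner beta rings, in which *Psmb5*, *Psmb6* and *Psmb7* encode the subunits that cut. The 19S cap sits on the core. It has a base with the ATPase ring (*Psmc* genes) that unfolds substrates and a lid that removes ubiquitin, and dedicated chaperones help to build it. Fibroblasts transcribe these genes steadily, while interferon and NF-κB signals are known to switch on *Psmb8*, *Psmb9* and *Psmb10*, whose products replace the 3 cutting subunits in the immunoproteasome. NF-κB activation itself relies on the proteasome, which degrades IκBα.

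Wild type at 0 h, wild type at 3 h, pTV and KTR had 1 array each on slides 1, 2 and 3, always in the same position per group, so that array position and group cannot be told apart. Both K314/315R arrays lay on slide 4, whose images went through a later software release, so that slide and cell line cannot be told apart there. All 10 fibroblast markers (collagens and others) were well above background on 14 of 14 arrays, and 3 of 3 endothelial markers on none. Of the 5 leukocyte markers 3 (*Ptprc* among them) were above it on none, *Cd68* on 6 arrays and *Csf1r* on 13. Of the epithelial markers *Cdh1* was above it on none, *Krt18* on 5 arrays and *Krt8* on all 14. The part of such cells in the levels of the subunits was not tested. Spots marked as outliers by the scanner software were left out, and they were most frequent on the KTR arrays (75, 212 and 326, against 1 to 108 on the others). They removed *Psma3* and *Psmd11* on KTR replicate 1 and *Psma5* on KTR replicates 2 and 3, so these 3 genes rest on 1 or 2 KTR arrays.

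All 34 tested members were well above background on all 14 arrays and above the 75th percentile of each array. Their levels lay between 0.35 (*Psmd9*, KTR replicate 1) and 7.15 (*Psmd3*, K314/315R replicate 2). The median SD within groups was 0.11 for the members and 0.19 for all tested probes. The median distance between the highest and the lowest of the 5 group means was 0.28 for the members and 0.46 for all tested probes. Both values were lower for the members, so the distances alone do not show steadier levels between groups. The tested probes include dimmer ones, and no comparison at equal brightness was made. The widest distance belonged to *Psmd10* (0.78), followed by *Psmd5* (0.73) and *Psma6* (0.64). *Psmd10* and *Psmd5* encode chaperones of base assembly and *Psma6* a subunit of the alpha ring. The narrowest belonged to *Psma1* (0.13), another alpha subunit. Correlations between members were taken over the 14 arrays after the mean of each group was subtracted, which leaves out shifts between groups. The median Pearson correlation over their 561 pairs was 0.15, with 331 pairs above 0. No value for pairs of all tested probes stands beside it, so whether it is low or high for these arrays was not tested. These pairs share arrays, slides and scaling.

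**Figure D1:**
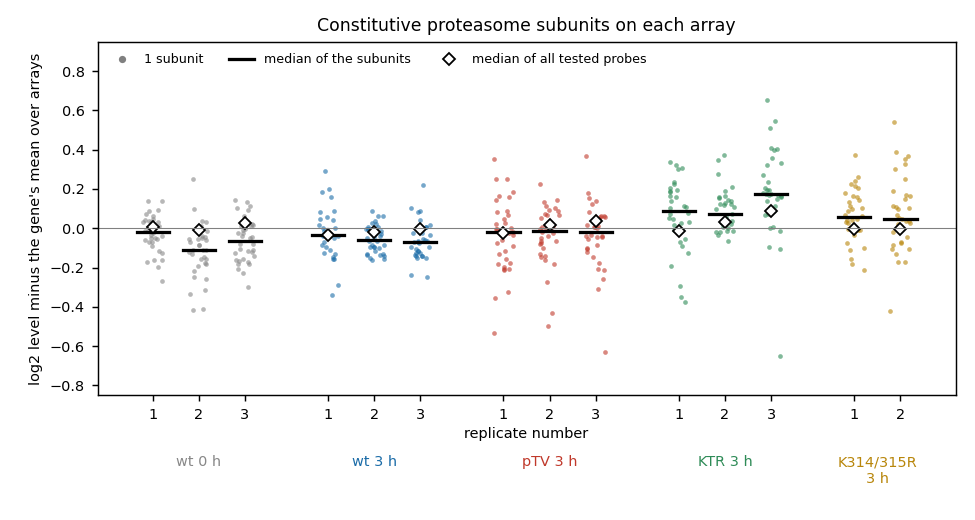
Level of each of the 34 subunit genes on each array, as the log2 difference from the mean of that gene over all arrays (vertical axis), by group and replicate (horizontal axis). Points are subunits, bars their median and diamonds the median of all tested probes. The medians of the subunits were 0.09, 0.07 and 0.17 on the KTR arrays and between −0.11 and −0.01 on the wild type and pTV arrays.

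The first comparison, wild type at 3 h over 0 h, asked what TNFα does in cells with wild type p65. None of the 34 constitutive subunit genes was called at an adjusted p under 0.05 by limma, where 4.65% of all tested probes were called, 2.69% higher and 1.96% lower, and 1.55% past 1.8-fold as well. By unadjusted p, 2 passed 0.05 (*Psmd5* and *Psmd8*), which is 5.88% of the members beside 17% of all probes. The median change of the members was 0.01 against −0.04 for all tested probes, and 18 of 34 were above 0, where 43.4% of all probes were. The direction of this median turned when normexp background correction was used (−0.31, with 0 of 34 above 0) and when single arrays were left out (−0.02 to 0.04). All 34 intervals at 95% lay within 1.8-fold either way, as did 83.7% over all probes.

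Among the highest was *Psma6*, with levels of 5.19, 4.90 and 5.01 at 0 h and 5.42, 5.14 and 5.28 at 3 h. The groups overlapped, and the difference of 0.25 ± 0.12 (SE) had an adjusted p of 0.324. Within slides 1, 2 and 3 it was 0.23, 0.24 and 0.27, of 1 sign on every slide, and no member was called in this comparison with the replicate number as a block. *Psmd8*, a lid subunit, measured 2.82, 2.46 and 2.70 at 0 h and 2.96, 2.87 and 2.88 at 3 h. Here the groups did not overlap, and the difference was 0.24 ± 0.11 (SE) with an adjusted p of 0.273. *Psmd5* had 3.38, 3.24 and 3.35 at 0 h and 3.61, 3.55 and 3.51 at 3 h. Its 3 h arrays were also all above the 0 h arrays, with a difference of 0.24 ± 0.11 (SE) and an adjusted p of 0.278. At the low end stood *Psmd4*, the ubiquitin receptor of the base, at −0.14 ± 0.08 (SE, adjusted p = 0.455, and −0.14, −0.16 and −0.13 within slides 1, 2 and 3), *Psmb6* at −0.13 ± 0.26 (SE, adjusted p = 0.878) and *Psmd9*, the third base chaperone, at −0.10 ± 0.12 (SE, adjusted p = 0.766). In all, 4 members (*Psmb2*, *Psmc5*, *Psmd5* and *Psmd8*) were higher and 1 (*Psmd4*) lower with no overlap between the groups, which held for 13.5% and 17% of all probes.

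The second comparison, wild type over pTV at 3 h, asked which transcripts differ between cells with wild type p65 and cells without p65. *Psmd10* was higher with wild type p65 and *Psmc5* was lower, and none of the other 32 subunits passed the test. These 2 of 34 stand beside 14.8% of all tested probes, of which 8.03% were higher and 6.8% lower. No member passed 1.8-fold, as 6.27% of all probes did, and 3 had an unadjusted p under 0.05 (26.3% of all probes). The median change was −0.03 for the members and −0.03 for all probes, and 11 of 34 were above 0, against 44.5%. With normexp correction the median was −0.19 and no member was called. The intervals of 33 members lay within 1.8-fold either way (77.1% over all probes), and the exception was *Psmd10*.

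*Psmd10* encodes gankyrin, an ankyrin repeat protein that binds an ATPase of the base during assembly and is also known as an oncoprotein. Its levels were 3.61, 3.41 and 3.54 in wild type cells at 3 h and 3.00, 2.83 and 2.69 in pTV. All wild type arrays were above all pTV arrays by a wide margin. The difference was 0.68 ± 0.10 (SE), a ratio of 1.61 with a 95% interval of 1.37 to 1.87, and limma gave an adjusted p of 0.000647. Within slides 1, 2 and 3 it was 0.61, 0.59 and 0.85. The untreated wild type cells, at 3.46, 3.25 and 3.34, also lay above every pTV array, although no test was made of them against the treated pTV cells. The call was lost with normexp correction, at a difference of 0.53 and an adjusted p of 0.645. Over the other 24 alternatives it held.

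*Psmc5* encodes an ATPase of the base. It measured 3.48, 3.54 and 3.52 in wild type cells at 3 h and 3.73, 3.82 and 3.74 in pTV. The groups did not overlap, although the distance was small. The difference was −0.25 ± 0.07 (SE), a ratio of 0.84, with an adjusted p of 0.0416. This call was lost when any single array of either group was left out, with adjusted p-values of 0.145, 0.0884 and 0.103 without wild type replicates 1, 2 and 3 and of 0.0673, 0.148 and 0.0838 without pTV replicates 1, 2 and 3. It was also lost without KTR replicate 2 (0.0518) and without wild type 0 h replicates 1, 2 and 3 (0.0581, 0.0562 and 0.0679). No filter on dim probes (0.125), a fit of only wild type 3 h and pTV arrays (0.0893), the mean over its probes (0.0641) and normexp correction (0.973) ended it too. The dimmer probe of *Psmc5* gave −0.28 with an adjusted p of 0.172.

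By role, all 8 lid subunits were below 0, from −0.15 (*Psmd13*) to −0.02 (*Psmd7*), and none was called. Of the 6 ATPases 5 were below 0, with *Psmc4* at −0.17 ± 0.08 (SE, adjusted p = 0.204) after *Psmc5*. Of the 7 alpha subunits 5 were above 0, led by *Psma6*. Its levels were 5.42, 5.14 and 5.28 in wild type cells and 5.06, 4.81 and 4.93 in pTV, without overlap. The difference of 0.35 ± 0.12 (SE) had an adjusted p of 0.0734, and with the replicate number as a block, which pairs the arrays of slides 1 to 3, it was called at 0.0149, as it was with slide as a random block at 0.0116. *Psmb4*, a beta subunit that does not cut, was at 0.18 ± 0.09 (SE, adjusted p = 0.254). *Psmd1*, the scaffold of the base, was among the lowest at −0.20 ± 0.14 (SE, adjusted p = 0.404). Groups without overlap were found for 4 members on the higher side and 5 on the lower side, which is 11.8% and 14.7% of the members beside 16.2% and 18.2% of all probes.

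The 3 cutting subunits were close to level between wild type and pTV cells, and their inducible replacements were not. *Psmb5* measured 4.25, 4.36 and 4.38 in wild type and 4.25, 4.38 and 4.41 in pTV, a difference of −0.01 with a 95% interval of −0.23 to 0.21. *Psmb7* measured 3.19, 3.01 and 3.04 in wild type and 3.14, 3.06 and 3.10 in pTV, a difference of −0.02 with an interval of −0.21 to 0.18. *Psmb6* measured 4.47, 4.85 and 4.74 in wild type and 4.28, 4.82 and 5.18 in pTV, a difference of −0.07 with an interval of −0.63 to 0.49. The arrays of both groups were interleaved for these 3 genes. The interval of *Psmb6* is the widest. Its SD within groups, 0.35, was the highest of the 34 members, and its array of replicate 1 was the lowest of each group.

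The inducible counterparts were chosen by name and are not members. *Psmb10*, which replaces *Psmb7*, had levels of 6.88, 6.75 and 6.63 in wild type cells at 3 h and 4.33, 4.37 and 4.40 in pTV. All wild type arrays lay far above, and the difference was 2.39 ± 0.10 (SE, adjusted p = 1.22e-08). *Psmb9*, which replaces *Psmb6*, differed by 3.60 ± 0.32 (SE, adjusted p = 8.78e-06), with 2 of 3 pTV arrays well above background. *Psmb8*, which replaces *Psmb5*, was not well above background on any pTV array, and its level in wild type cells was at least 22.7-fold higher. The adjusted p of 1.32e-06 belongs to the fitted difference of 6.03 and not to this bound. The fitted difference uses the pTV signals that were not well above background. That bound sets the mean of the bright group against a floor, set for each pTV array at the dimmest signal of any probe that passed the background test, or at the signal of *Psmb8* itself where that was higher. *Psme1*, a subunit of the interferon-inducible 11S cap, differed by 1.16 ± 0.11 (SE, adjusted p = 1.19e-05). With TNFα alone, only *Psmb10* of these 4 was called in the fit without blocks (0.55 ± 0.10, SE, adjusted p = 0.00691). *Psmb8* (0.76 ± 0.43) and *Psmb9* (0.51 ± 0.32) had adjusted p-values of 0.419 and 0.486. On slides 1, 2 and 3 *Psmb8* was at −0.38, −0.99 and −1.65 at 0 h and 0.37, −0.17 and −0.96 at 3 h. *Psmb9* was at −1.10, −1.33 and −1.88 at 0 h and −0.60, −0.89 and −1.30 at 3 h. Both were higher at 3 h on every slide, and their values in a blocked fit are not given here.

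**Figure D2:**
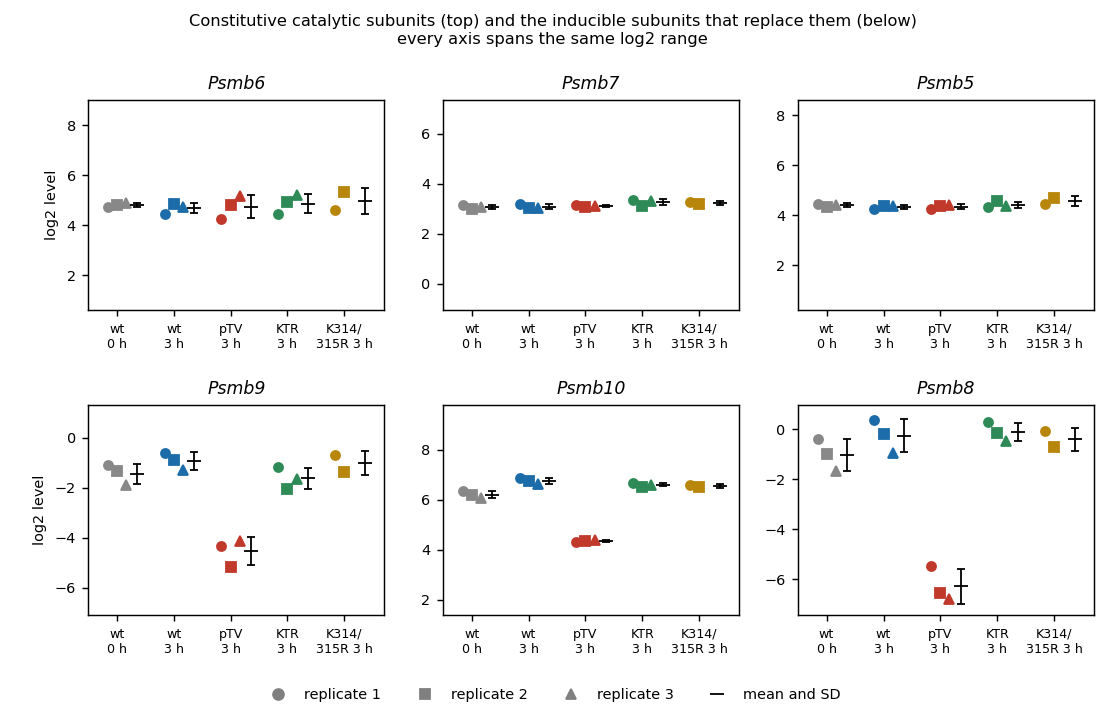
Log2 level (vertical axis, the same span in every panel) of the constitutive cutting subunits *Psmb6*, *Psmb7* and *Psmb5* and of the inducible *Psmb9*, *Psmb10* and *Psmb8* that replace them, by group (horizontal axis). Symbols are single arrays, and the lines give the mean and SD. The pTV arrays of *Psmb10* sit between 4.33 and 4.40, below every other array of that gene, and those of *Psmb8* were not well above background, while no such gap is seen for *Psmb6*, *Psmb7* or *Psmb5*.

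The third comparison, KTR over pTV at 3 h, used the same pTV arrays and asked the question for the mutant with 3 changed lysines. Of the 34 members 4 were higher, *Psmd10*, *Psma6*, *Psmd5* and *Psma4*, and none was lower, beside 9.27% and 5.89% of all tested probes. No member passed 1.8-fold (6.01% of all probes), and 11 had an unadjusted p under 0.05 (27.9% of all probes). The median change was 0.11 for the members and 0.02 for all probes, with 28 of 34 above 0 against 52.9%. When no filter on dim probes was set, the median of all probes (0.15) exceeded that of the members. With the replicate number as a block, 10 members were called higher, namely these 4 and *Psma2*, *Psma3*, *Psmb2*, *Psmb4*, *Psmc3* and *Psmd2*. The share of all tested probes called in that fit is not at hand, so nothing particular to the members is read from this count. With normexp correction no member was called, and the medians were 0.29 for the members and −0.04 for all probes. With quantile normalization they were 0.06 and 0.0048 (22 of 34 members above 0).

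*Psmd10* measured 3.63, 3.52 and 3.72 in KTR cells, above the pTV values given above on every array. The difference was 0.78 ± 0.10 (SE), a ratio of 1.72 (95% interval 1.47 to 2.01), with an adjusted p of 0.000258. *Psma6* measured 5.56, 5.40 and 5.75 in KTR and 5.06, 4.81 and 4.93 in pTV. Its groups were likewise apart, by 0.64 ± 0.12 (SE), a ratio of 1.56, with an adjusted p of 0.00314. Within slides 1, 2 and 3 the difference of *Psma6* was 0.50, 0.59 and 0.82. The calls of both genes held over 24 of 25 alternatives and were lost with normexp correction. The differences were larger there, at 0.97 for *Psmd10* (adjusted p = 0.0596) and 0.78 for *Psma6* (adjusted p = 0.25).

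*Psmd5* encodes the chaperone that holds part of the ATPase ring before it joins the core. It measured 3.88, 3.99 and 4.30 in KTR and 3.63, 3.72 and 3.60 in pTV. The highest value was that of KTR replicate 3, and the groups did not overlap. The difference was 0.41 ± 0.11 (SE), a ratio of 1.33, with an adjusted p of 0.0213, and it was lost without KTR replicate 3 (0.29, adjusted p = 0.0556), without pTV replicate 1 (0.40, adjusted p = 0.0537) and without pTV replicate 3 (0.38, adjusted p = 0.0726). *Psma4*, an alpha subunit, measured 3.28, 3.31 and 3.52 in KTR and 3.03, 2.89 and 3.06 in pTV. These groups did not overlap either. The difference was 0.37 ± 0.10 (SE), a ratio of 1.3, with an adjusted p of 0.0273, and it was lost without KTR replicate 3 (0.30, adjusted p = 0.0904) and without pTV replicate 2 (0.32, adjusted p = 0.112). Both calls were also lost, at unchanged differences, when no filter on dim probes was set (adjusted p = 0.0567 for *Psmd5* and 0.0676 for *Psma4*). The same was seen when the fit held only KTR and pTV arrays (0.152 and 0.13). With normexp correction both were lost at differences of 0.35 for *Psmd5* (adjusted p = 0.799) and 0.54 for *Psma4* (adjusted p = 0.619).

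The other members of the comparison ran from −0.23 to 0.35. The lowest was *Psmd7*, a lid subunit, at −0.23 ± 0.21 (SE, adjusted p = 0.528). Its KTR arrays read 3.02, 3.77 and 2.75, and it was called lower (−0.53, adjusted p = 0.0264) once KTR replicate 2 was left out. The other probes of *Psmd7* gave 0.01 ± 0.14 (SE) and −0.11 ± 0.11 (SE), so that the brightest probe and the dimmest had the same sign. *Psmc4* (−0.10 ± 0.08, SE) and *Psma1* (−0.07 ± 0.09, SE) had adjusted p-values of 0.446 and 0.678. *Psmb5* was at 0.07 (95% interval −0.15 to 0.29), *Psmb6* at 0.12 (−0.44 to 0.67) and *Psmb7* at 0.15 (−0.04 to 0.35). The inducible counterparts were all called higher, with *Psmb10* at 2.24 ± 0.10 (SE), *Psmb9* at 2.91 ± 0.32 (SE, on a pTV mean with 2 of 3 arrays well above background), *Psme1* at 1.12 ± 0.11 (SE) and *Psmb8* at least 25.2-fold higher. Intervals of 32 members lay within 1.8-fold either way, as did 76.6% over all probes.

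**Figure D3:**
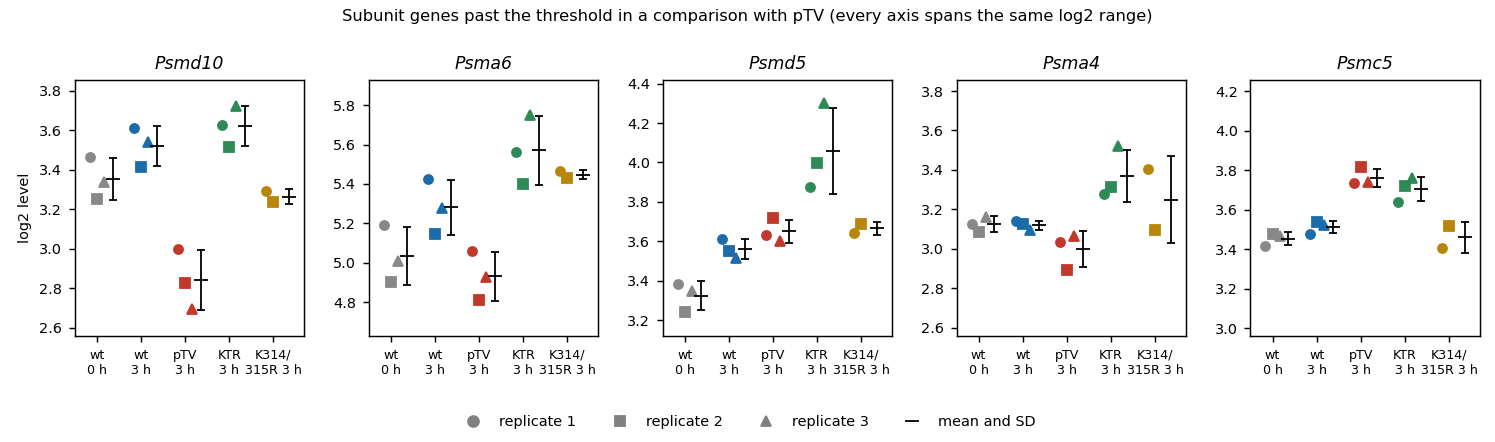
Log2 level (vertical axis, the same span in every panel) of the 5 subunit genes that passed the threshold in wild type over pTV or in KTR over pTV, by group (horizontal axis). Symbols are single arrays, and the lines give the mean and SD. The pTV arrays of *Psmd10* (2.69 to 3.00) lie below all others of that gene, whereas those of *Psmc5* (3.73 to 3.82) overlap with KTR.

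Promoter letters are shown for the called members with a window in the table and for *Psmb5* beside its replacement *Psmb8*, since *Psmb8* was called in wild type over pTV and *Psmb5* was not. They are the 250 bases before the annotated start, 5′ to 3′ on the strand of the gene, from RefSeq (GRCm38.p6). Capitals mark matches on either strand to CCAAT, to CCGGAA (the core of ETS factor sites), to TGACNNNGC (the core of the antioxidant response element) or to the κB consensus. *Psmd10* lies at chrX:140956712-140956961 on the minus strand, *Psma6* at chr12:55398575-55398824 on the plus strand (the second of 2 windows), *Psmc5* at chr11:106255935-106256184 on the plus strand, *Psmb5* at chr14:54617996-54618245 on the minus strand and *Psmb8* at chr17:34197945-34198194 on the plus strand.
Psmd10: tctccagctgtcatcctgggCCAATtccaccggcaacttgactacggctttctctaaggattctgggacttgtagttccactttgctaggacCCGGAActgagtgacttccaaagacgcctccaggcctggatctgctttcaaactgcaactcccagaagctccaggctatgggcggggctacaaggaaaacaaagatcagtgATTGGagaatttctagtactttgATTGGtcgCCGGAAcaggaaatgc
Psma6: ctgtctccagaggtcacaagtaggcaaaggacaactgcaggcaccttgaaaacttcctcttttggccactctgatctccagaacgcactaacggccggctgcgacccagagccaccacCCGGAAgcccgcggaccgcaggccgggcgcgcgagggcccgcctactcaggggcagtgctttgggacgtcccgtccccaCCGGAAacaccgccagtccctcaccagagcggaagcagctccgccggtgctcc
Psmc5: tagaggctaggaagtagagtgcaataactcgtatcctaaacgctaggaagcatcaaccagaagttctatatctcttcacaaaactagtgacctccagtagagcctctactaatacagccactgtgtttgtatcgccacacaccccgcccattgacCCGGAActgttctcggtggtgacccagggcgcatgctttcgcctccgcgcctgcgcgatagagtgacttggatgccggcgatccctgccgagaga
Psmb5: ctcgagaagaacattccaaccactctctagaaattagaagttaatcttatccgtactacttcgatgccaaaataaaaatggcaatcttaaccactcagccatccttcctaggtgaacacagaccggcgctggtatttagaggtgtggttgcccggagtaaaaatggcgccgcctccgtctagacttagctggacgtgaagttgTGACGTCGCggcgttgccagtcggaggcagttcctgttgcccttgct
Psmb8: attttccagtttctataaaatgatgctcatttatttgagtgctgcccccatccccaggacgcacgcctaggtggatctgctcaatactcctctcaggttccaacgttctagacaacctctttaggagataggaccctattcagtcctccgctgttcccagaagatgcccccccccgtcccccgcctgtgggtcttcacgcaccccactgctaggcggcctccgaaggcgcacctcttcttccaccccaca
The *Psmd10* window holds CCAAT 3 times and CCGGAA 2 times, the printed *Psma6* window CCGGAA 2 times, and the *Psmc5* window CCGGAA 1 time. The first *Psma6* window, which is not printed, holds matches to CCAAT and none to CCGGAA. In *Psmb5* the capitals are the single match to TGACNNNGC, and the *Psmb8* window holds no match to any of the 4 patterns. Windows were found for 28 members, 30 windows in all, to be read against 32851 windows of all genes. CCGGAA was in 14 of the 30 (46.7%) against 12.0% of all windows, CCAAT in 11 (36.7%) against 33.8%, TGACNNNGC in 5 (16.7%) against 10.2% and the κB consensus in 1 (3.33%, *Psmd12*) against 3.9%. These matches are letters and not tested sites. In the RefSeq order of protein-coding genes *Psma6* is followed by *Nfkbia*, the gene of IκBα, and *Psmd10* stands between *Vsig1* and *Atg4a*. Whether neighbourhood plays a part in the levels was not tested.

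The fourth comparison, KTR over wild type at 3 h, asked whether expression differs between cells with the 3 lysines mutated and cells with wild type p65. No subunit gene was called, where 0.234% of all tested probes were, 0.0586% higher and 0.176% lower, and 10 had an unadjusted p under 0.05 (9.19% of all probes). The changes were small and mostly above 0. Of the 34 members 33 were above 0, against 63.4% of all probes, and the median was 0.17 against 0.06. The number above 0 was between 31 and 33 over the 25 alternatives, and these were not always the same members. With normexp correction the median was 0.49 against −0.04 for all probes. Groups were without overlap for 15 members, 44.1%, all higher in KTR, where 9.49% of all probes were higher and 5.24% lower. Among these, *Psma5* rests on 1 KTR array and *Psma3* and *Psmd11* on 2 each, and fewer arrays overlap less easily. Within slides 1, 2 and 3 the median of the members was 0.10, 0.15 and 0.24 and that of all probes 0.02, 0.06 and 0.10. All 34 intervals lay within 1.8-fold either way (86.6% over all probes).

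The KTR arrays also had the most outlier spots, as given above, and between 49.9% and 53.3% of their spots were well above background, against 54.3% to 57.3% on the wild type arrays at 3 h. The part of this in the shift of the subunits was not tested. With outlier spots kept, the median was 0.13 for the members and 0.01 for all probes. When no filter on dim probes was set, the median of all probes was 0.15, near that of the members.

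The highest member was *Psmd5*, at 3.88, 3.99 and 4.30 in KTR and 3.61, 3.55 and 3.51 in wild type. All KTR arrays were above all wild type arrays. The difference was 0.50 ± 0.11 (SE), a ratio of 1.41 (95% interval 1.2 to 1.66), with an adjusted p of 0.0927. It passed when KTR replicate 1 was left out (0.59, adjusted p = 0.0301), when no filter was set (adjusted p = 0.0299) and with slide as a random block (adjusted p = 0.0291). *Psmc2*, an ATPase, measured 5.31, 5.30 and 5.67 in KTR and 5.17, 5.10 and 5.13 in wild type, a difference of 0.29 ± 0.11 (SE, adjusted p = 0.4). *Psma6* measured 5.56, 5.40 and 5.75 in KTR and 5.42, 5.14 and 5.28 in wild type, a difference of 0.29 ± 0.12 (SE, adjusted p = 0.481). For both the highest array was KTR replicate 3, and the groups of *Psma6* overlapped. *Psmd14*, the lid enzyme that removes ubiquitin, was higher by 0.26 ± 0.09 (SE, adjusted p = 0.357) without overlap. At the low end were *Psmd7*, whose other probes disagreed with it (−0.21 ± 0.21, SE, adjusted p = 0.812, against 0.11 and 0.10), *Psmd8* (0.04 ± 0.11, SE, adjusted p = 0.948) and *Psma1* (0.04 ± 0.09, SE, adjusted p = 0.93). *Psmd10*, the member with the widest difference from pTV, was 0.10 ± 0.10 (SE) with an interval of −0.13 to 0.32. *Psmb5* was at 0.08 (95% interval −0.14 to 0.31), *Psmb6* at 0.19 (−0.37 to 0.74) and *Psmb7* at 0.17 (−0.02 to 0.37).

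The fifth comparison, K314/315R over wild type at 3 h, asked the same of 2 lysines, with 2 arrays on a slide of their own. No member was called, where 2.21% of all probes were, 0.469% higher and 1.75% lower, and 3 had an unadjusted p under 0.05 (*Psmc2*, *Psmc4* and *Psmd10*, 8.82% of the members beside 17.4% of all probes). Of the 34 members 25 were above 0, against 53% of all probes, with a median of 0.15 against 0.02. With normexp correction the medians were 0.39 and −0.06 (32 of 34 members above 0), and with quantile normalization 0.10 and 0.04 (24 of 34). Groups were without overlap for 17 members on the higher side (50% of them, 19% of all probes) and for 1 on the lower side (17.2% of all probes). This lower member was *Psmd10*, at 3.29 and 3.24 in K314/315R and 3.61, 3.41 and 3.54 in wild type. Both mutant arrays were below the wild type arrays and above the pTV arrays, and the difference from wild type was −0.26 ± 0.12 (SE, adjusted p = 0.273).

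The highest members were *Psmc2*, at 5.44 and 5.43 against 5.17, 5.10 and 5.13 in wild type (0.30 ± 0.12, SE, adjusted p = 0.209), *Psmb6* (0.29 ± 0.29, SE, adjusted p = 0.659) and *Psmd9* (0.28 ± 0.14, SE, adjusted p = 0.322). *Psmb6* rests on arrays of 4.60 and 5.35 and was at −0.09 without replicate 2. The lowest after *Psmd10* were *Psmd1* (−0.20 ± 0.15, SE, adjusted p = 0.552) and *Psma3* (−0.07 ± 0.09, SE, adjusted p = 0.743). *Psmb5* was at 0.23 (95% interval −0.01 to 0.48) and *Psmb7* at 0.15 (−0.07 to 0.37). By role, all 3 cutting subunits, 7 of 8 lid subunits and 5 of 6 ATPases were above 0, as were 3 of 7 alpha subunits, with no call in any role. The intervals of 33 members lay within 1.8-fold either way, as did 78.2% over all probes, and that of *Psmb6* reached 0.91. All comparisons with wild type at 3 h share its 3 arrays, so that their shifts are not separate observations.

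**Figure D4:**
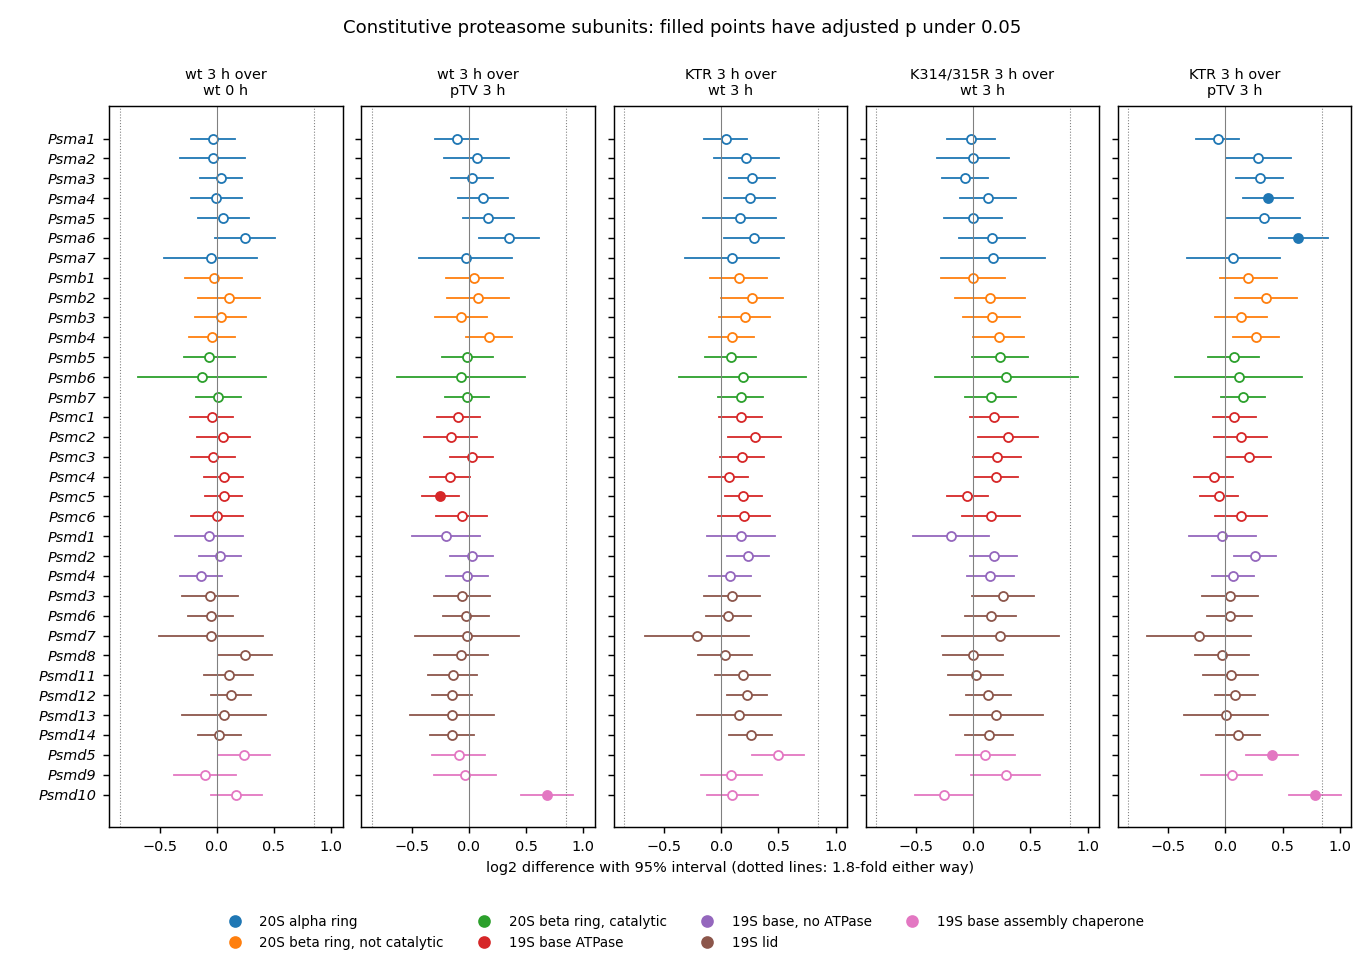
Log2 difference of each of the 34 subunit genes (horizontal axis, with its 95% interval) in the 5 comparisons, with genes ordered and coloured by their place in the particle. Filled points had an adjusted p under 0.05. Filled points appear in 2 panels, *Psmd10* and *Psmc5* for wild type over pTV and *Psma4*, *Psma6*, *Psmd5* and *Psmd10* for KTR over pTV, and 33 of 34 points lie right of 0 for KTR over wild type.

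Genes with more than 1 probe gave a check on these values. Of the 34 members 12 had further tested probes, 14 in all, and none of these was called in any comparison. Their sign matched that of the brightest probe for 8 of 14 in the TNFα comparison, 12 in wild type over pTV, 11 in KTR over pTV, 11 in KTR over wild type and 9 in K314/315R over wild type. *Psmd10*, *Psma6* and *Psmd5* had a single probe each.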

How the data were processed

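Messenger RNA was measured in 14 cultures, 1 array each. Per the file headers, the authors deposited the output of Agilent Feature Extraction (9.1 in the submitters' processing notes). Intensities of the spots had been adjusted there for local background and for trends over the slide, without any scaling of arrays to each other. A second set of intensities, which the authors also deposited, was the scanner intensity times a single factor per array (0.837 to 1.20), and it served as an alternative. The study names Rosetta Resolver, which was not used here.

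Spots flagged as outliers (1 to 326 per array) were left out, spots of a probe averaged, and the intensities of each array divided by their 75th percentile (967 to 1442) before the log2. Tests were limited to probes that were well above background throughout at least 1 group (22179 of 41174). A single limma 3.58.1 fit in R 4.3.3 (with the data.table package, version 1.17.8) held all 14 arrays as 5 group means. Tests were two-sided, and p-values were adjusted after Benjamini and Hochberg across every tested probe. A call is an adjusted p under 0.05. No genome build enters the array values. The number of arrays limits the precision. RNA of the replicates was isolated on different days.

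Members, lists and tests were chosen with earlier results of these data known. Any member may be named. Values are given for members with a call, for the 3 highest and 3 lowest of each comparison and for *Psmb5*, *Psmb6* and *Psmb7*. *Psmd14* and, where the rule does not reach them, *Psmd10*, *Psma6* and *Psmd5* were added after their values were seen. Alternatives were other background correction, normalization, centring, filters, blocks, arrays and probe rules.

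To see whether replicate numbers pair the arrays, deviations from the group means were correlated over probes. On slides 1 to 3, equal numbers gave 0.308 to 0.613 in 18 pairs and unequal numbers −0.510 to 0.0954 in 36, so these arrays are paired by number, that is by slide. Equal numbers across slide 4 gave −0.101 to 0.411 and pair nothing. The script was tested on simulated arrays with 21589 probes. Of 200 probes given a change of 1.5 (log2) it found 190 for TNFα, 184 for wild type over pTV, 180 for KTR over wild type, 171 for K314/315R over wild type and 178 for KTR over pTV. Given 0.5 it found 21, 27, 26, 0 and 24.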

Additional observations from a re-analysis of the deposited data

How the results depend on the processing

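Of 25 alternatives, normexp background correction moved the medians of the members the most. With it the median change of the members was −0.31 with TNFα, −0.19 in wild type over pTV, 0.49 in KTR over wild type, 0.39 in K314/315R over wild type and 0.29 in KTR over pTV, and 0 members were called in wild type over pTV and 0 in KTR over pTV. Signs turned for *Psmd5* (−0.035), *Psmd8* (−0.058), *Psma6* (−0.095) and *Psmb7* (−0.28) with TNFα, *Psmb4* (−0.0084) in wild type over pTV, *Psma3* (0.21) in K314/315R over wild type, and *Psmc4* (0.12) and *Psma1* (0.096) in KTR over pTV. The cause was not tested. Quantile normalization gave medians of −0.064 in wild type over pTV, 0.095 in K314/315R over wild type and 0.055 in KTR over pTV, where *Psmb5* turned to −0.0050. The deposited table gave 0.13 in KTR over wild type, with *Psmd8* at −0.0090 and *Psma1* at −0.0053, and 0.19 in K314/315R over wild type. Keeping flagged spots gave 0.13 in KTR over wild type, with *Psmd8* at −0.0078 and *Psma1* at −0.0041. The mean over all probes of a gene gave 1 call and a median of −0.047 in wild type over pTV, and 0.021 for *Psmd9* with TNFα. Without a filter on dim probes 1 member was called in wild type over pTV, 1 in KTR over wild type and 2 in KTR over pTV. With only the arrays of both groups in the fit 1 was called in wild type over pTV and 2 in KTR over pTV. By unadjusted p the counts in the order TNFα, wild type over pTV, KTR over wild type, K314/315R over wild type and KTR over pTV were 2, 3, 10, 3 and 11.

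With the replicate number as a block, which pairs the arrays of slides 1 to 3, the calls were 10 in KTR over pTV, among them all 4 of the main result, and 3 in wild type over pTV. With slide as a random block they were 10 in KTR over pTV, 3 in wild type over pTV (with *Psma6* added) and 1 in KTR over wild type (*Psmd5*). Neither block gave a call with TNFα or in K314/315R over wild type. The replicate block also joined the K314/315R arrays of slide 4 to the others by number, although equal numbers pair nothing there. The shares of all tested probes called under these blocks are not at hand, so nothing particular to the members is read from the counts.

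With 1 array left out at a time, the calls ranged from 0 to 0 with TNFα, 1 to 2 in wild type over pTV, 0 to 1 in KTR over wild type, 0 to 0 in K314/315R over wild type and 2 to 6 in KTR over pTV. The medians ranged from −0.025 to 0.039, −0.051 to −0.013, 0.14 to 0.22, 0.11 to 0.15 and 0.089 to 0.14 in the same order. Signs of small differences turned for *Psmb7* with TNFα (−0.041 to 0.055), for *Psmb5* (−0.062 to 0.026), *Psmb6* (−0.31 to 0.14) and *Psmb7* (−0.072 to 0.017) in wild type over pTV, for *Psmd7* (−0.51 to 0.0034) and *Psma1* (−0.015 to 0.10) in KTR over wild type, and for *Psmb6* in K314/315R over wild type (−0.086 to 0.67) and KTR over pTV (−0.12 to 0.33). A lone K314/315R array was assumed to vary like the other groups. With 2 or 3 arrays per group, changes of 0.5 on the log2 scale were mostly missed on simulated arrays. The sensitivity for the members was not simulated. Their median SD within groups was 0.11, against 0.19 for all tested probes.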

Other observations

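Genes that work with the proteasome were read from 2 lists. The first held assembly factors and associated proteins, such as *Pomp* (core maturation), *Adrm1* (a ubiquitin receptor) and *Usp14* (a ubiquitin-removing enzyme of the cap). Of its 11 tested genes none was called by limma in any of the 5 comparisons, where 0.234% to 15.2% of all tested probes were. Their median change was −0.03 with TNFα, −0.05 in wild type over pTV, −0.01 in KTR over pTV, 0.10 in KTR over wild type and 0.03 in K314/315R over wild type. In K314/315R over wild type, *Psme3*, which encodes a nuclear cap of the core, was at −0.53 ± 0.14 (SE, adjusted p = 0.0709) and *Adrm1* at −0.65 ± 0.22 (SE, adjusted p = 0.145), both without overlap between the groups. The mutant arrays of *Adrm1* had an SD of 0.66 (n = 2).

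The second list, of 15 tested genes, held ubiquitin genes and regulators of proteasome transcription. It had 1 call with TNFα, 1 in wild type over pTV and 2 in KTR over pTV, where 4.65%, 14.8% and 15.2% of all tested probes were called, so that nothing particular to the list is read from them. With TNFα, *Nfe2l2*, the transcription factor of the oxidative stress response, rose by 0.52 ± 0.13 (SE, adjusted p = 0.0445). In wild type over pTV, *Nfe2l1*, the factor that raises proteasome genes when the proteasome is impaired, was higher by 0.36 ± 0.11 (SE, adjusted p = 0.04998), and in KTR over pTV it was at 0.35 ± 0.11 (SE, adjusted p = 0.0515). In KTR over pTV, *Ngly1*, the enzyme that strips sugars from the product of *Nfe2l1*, was higher by 0.62 ± 0.19 (SE, adjusted p = 0.0465), and *Sqstm1*, an autophagy receptor for ubiquitin, by 0.38 ± 0.11 (SE, adjusted p = 0.0441). No gene of this list was called in KTR over wild type (0.234% of all probes) or in K314/315R over wild type (2.21%). These 4 calls have adjusted p-values between 0.0441 and 0.04998.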
